A study of Homo sapiens with 9 samples.

Results

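The unfolded protein response (UPR) and endoplasmic reticulum (ER) folding genes were followed as a set of 33 genes listed by name. The list was drawn up with earlier results of these data known. By role they were 8 chaperones and cochaperones, 2 lectin chaperones, 5 disulfide isomerases and related proteins, 10 genes of ER-associated degradation (ERAD), 5 stress sensors and transcription factors, and 3 genes of transport and the ER membrane. All 33 were among the 58214 genes with a matched transcript, and all 33 passed the filter on low counts in each comparison. RNA came from K562, a human myelogenous leukemia cell line with erythroid features, in 3 libraries per group (the labels spell the line K562 in titles and K652 elsewhere). The groups were non-targeting siRNA (SCR, with the treatment label WT), a pool of siRNAs against DHX34, and siRNAs against UPF1, with no further agent given to any group. Cells were transfected, transfected again on day 3 and harvested on day 4, so each group is a partial and transient depletion of 1 line. DHX34 is an RNA helicase of nonsense-mediated mRNA decay (NMD), in which mRNAs whose reading frame ends too early are destroyed. UPF1 is the core helicase of NMD. The comparisons asked how loss of either helicase changes RNA levels.

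Proteins that enter the secretory pathway fold in the ER with the help of chaperones, lectins and disulfide isomerases. When unfolded proteins build up, the sensors ERN1 (IRE1), EIF2AK3 (PERK) and ATF6 raise folding and degradation capacity and lower translation. IRE1 removes a short intron from the XBP1 mRNA outside the spliceosome, and the shifted frame encodes the active transcription factor XBP1s, which drives ERAD and folding genes such as EDEM1 and DNAJB9. ATF6 acts on chaperone genes such as HSPA5, while PERK phosphorylates eIF2α and raises translation of ATF4. Several mRNAs of these pathways, those of ERN1 and ATF4 among them, are known from other work as NMD targets.

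The libraries held 73478797 to 103625443 expected counts. DHX34 stood at 72.5, 74 and 74.6 CPM (counts scaled to the size of each library) in SCR and at 30, 30 and 34 in its own knockdown, a log2 fold change of -1.23. UPF1 stood at 252, 266 and 267 CPM in SCR and at 105, 107 and 104.4 in its knockdown, a log2 fold change of -1.31, so both labels matched the depleted gene in every library. Mitochondrial transcripts took 2.4% to 2.51% of counts in SCR, 1.64% to 2.09% in the DHX34 knockdown and 1.77% to 1.92% in the UPF1 knockdown, and the part of this shift in the results was not tested. The erythroid markers of K562 were high in all 9 libraries (GATA1 184 to 225 TPM, HBG2 7222 to 13174 TPM). Of the lymphocyte markers, CD8A and MS4A1 were listed at 0 in 9 of 9 libraries and CD3E reached at most 0.21 TPM. The monocyte gene LYZ stood at 11.9 to 32.8 TPM with CD14 at most 0.18, and EPCAM at 68.1 to 80.4 TPM with the other epithelial markers at most 0.16.

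In SCR cells the set spanned a wide range of levels per length, given here in TPM (which also corrects for transcript length; mean ± SD, n = 3). Calreticulin (CALR) was highest at 547 ± 4.26, followed by SDF2L1, a partner of the DNAJB11 cochaperone, at 523 ± 8.5 and the translocon subunit SEC61B at 337 ± 5.68. Calnexin (CANX) at 266 ± 9.78, P4HB at 254 ± 8.74, PDIA3 at 252 ± 13.2 and HSP90B1 at 240.4 ± 5.1 formed a run in which neighbours overlapped between libraries. HSPA5 (BiP), the main ER Hsp70, stood at 143 ± 2.16. The transcription factor XBP1 at 65.7 ± 3.04 overlapped with HYOU1, the ER Grp170 chaperone, at 65.2 ± 1.8. Lower levels were found for ATF6 at 9.87 ± 0.384, DNAJB9 at 8.24 ± 0.849, EDEM1 at 4.65 ± 0.325, ERN1 at 3.44 ± 0.246 and EIF2AK3 at 1.95 ± 0.345. WFS1, an ER membrane glycoprotein, was nearly silent at 0.0904 ± 0.024.

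After DHX34 knockdown 5 ERAD genes and SEC24D rose, while no chaperone, lectin or isomerase passed the test. RNA was measured in bulk, where fewer cells of a kind and less RNA per cell cannot be told apart. Of the 33 genes 6 rose at an edgeR adjusted p of at most 0.005, beside 5.54% of all 17004 genes tested, and 0 fell, beside 4.86%. At an unadjusted p under 0.05, 11 were higher and 2 lower, and DESeq2 called 8 higher and 0 lower. The median log2 fold change was 0.05, against 0.02 over all genes. The chaperones, lectins and disulfide isomerases gave 0 calls in 15 genes (2 at an unadjusted p under 0.05, 0 by DESeq2), with log2 fold changes from -0.06 to 0.13.

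SEC24D (ENSG00000150961, chromosome 4, 118722823 to 118838683) encodes a cargo adaptor of COPII vesicles, which carry proteins out of the ER. It stood at 22.3, 23.5 and 24.8 CPM in SCR, at 34.3, 35.3 and 34.4 after DHX34 knockdown and at 26.8, 26.1 and 28.5 after UPF1 knockdown. All 3 DHX34 libraries lay above all others, and the UPF1 libraries lay between. The rise in the DHX34 knockdown was 0.56 (SE 0.05, adjusted p 3.86e-05) on the log2 scale, and it was called in all 6 fits that left out 1 library. In the UPF1 knockdown the log2 difference was 0.20 (SE 0.05, adjusted p 0.0103), short of the threshold.

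The ERAD genes that rose were parts of the HRD1 ligase complex and mannosidases of the EDEM family. SEL1L, the scaffold of the HRD1 ligase, stood at 32.3, 35 and 33.9 CPM in SCR and 40.8, 41.3 and 41.9 in the DHX34 knockdown, a log2 rise of 0.29 (SE 0.04, adjusted p 0.000949). EDEM3, a mannosidase that marks glycoproteins for disposal, stood at 57.2, 61.8 and 61.6 CPM in SCR and 73.6, 70.7 and 74.1 in the knockdown, a rise of 0.28 (SE 0.04, adjusted p 0.000973). EDEM1, of the same family, stood at 24.6, 25.6 and 25.1 CPM in SCR and 29.1, 30.5 and 30.9 in the knockdown, a rise of 0.27 (SE 0.05, adjusted p 0.00215). In each case the knockdown libraries lay above the SCR libraries without overlap. SYVN1, the HRD1 ligase itself, went from 51.2, 49.1 and 47.8 to 58.4, 55.3 and 59.4 CPM (log2 0.23, SE 0.04, adjusted p 0.00386). OS9, a lectin that delivers glycoproteins to the ligase, went from 91.6, 94.8 and 91.5 to 103, 105 and 111 (log2 0.20, SE 0.04, adjusted p 0.00352). EDEM2, HERPUD1, DERL1, DERL2 and DERL3 were not called, with log2 differences of -0.04, 0.05, -0.01, -0.02 and -0.37.

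Of the 5 sensors and transcription factors 0 were called by edgeR in the DHX34 knockdown, 3 at an unadjusted p under 0.05 and 2 by DESeq2. Of all genes tested edgeR called 5.54% higher and 4.86% lower. EIF2AK3 stood at 6.98, 9.16 and 8.53 CPM in SCR and 10.8, 10.6 and 12.3 in the knockdown (log2 0.45, SE 0.10, adjusted p 0.00966). ATF6B, the paralog of ATF6, differed by 0.18 (SE 0.04, adjusted p 0.0056), but it lies in the major histocompatibility region, whose alternate copies can share reads, so its value is uncertain. ERN1 differed by 0.24 (SE 0.06, adjusted p 0.0134). For ATF6 the difference was 0.05 and for XBP1 it was 0.10, with adjusted p of 0.386 and 0.141 in edgeR.

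The calls of the DHX34 comparison moved with single libraries and with gene length. The number of members called higher was 1 without SCR replicate 1, 3 without SCR replicate 2 and 2 without SCR replicate 3. It was 1 without DHX34 replicate 1, 2 without DHX34 replicate 2 and 6 without DHX34 replicate 3. Over all genes 942 were called higher with all libraries, and 480, 593 and 480 without SCR replicate 1, 2 or 3. Without DHX34 replicate 1, 2 or 3 the number over all genes was 524, 592 or 971. SEC24D was called in all 6 of these fits, EDEM3 in 4, SEL1L in 2, and EDEM1 and OS9 in 1 each. SYVN1 was called in 0 of them (adjusted p 0.00684 to 0.0208). HYOU1, a chaperone not called with all libraries (log2 0.13, SE 0.035, adjusted p 0.0171), was called in 1. Across all genes the log2 fold change rose with transcript length (Spearman 0.238 over 17004 genes, a description). The 6 genes called with all libraries had a median effective length of 4292 bases, against 1759 for the other 27 members and 1815 for all genes tested. With the length trend removed 1 of the 6, SEC24D, was still called (0.48, adjusted p 7.26e-05), while SEL1L stood at 0.15 (0.0189), EDEM3 at 0.14 (0.0189) and EDEM1 at 0.13 (0.0516). Length-scaled counts also gave 1 call, SEC24D, and limma on log2 TPM centred by library gave 0 (13 at an unadjusted p under 0.05).

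**Figure D1:**
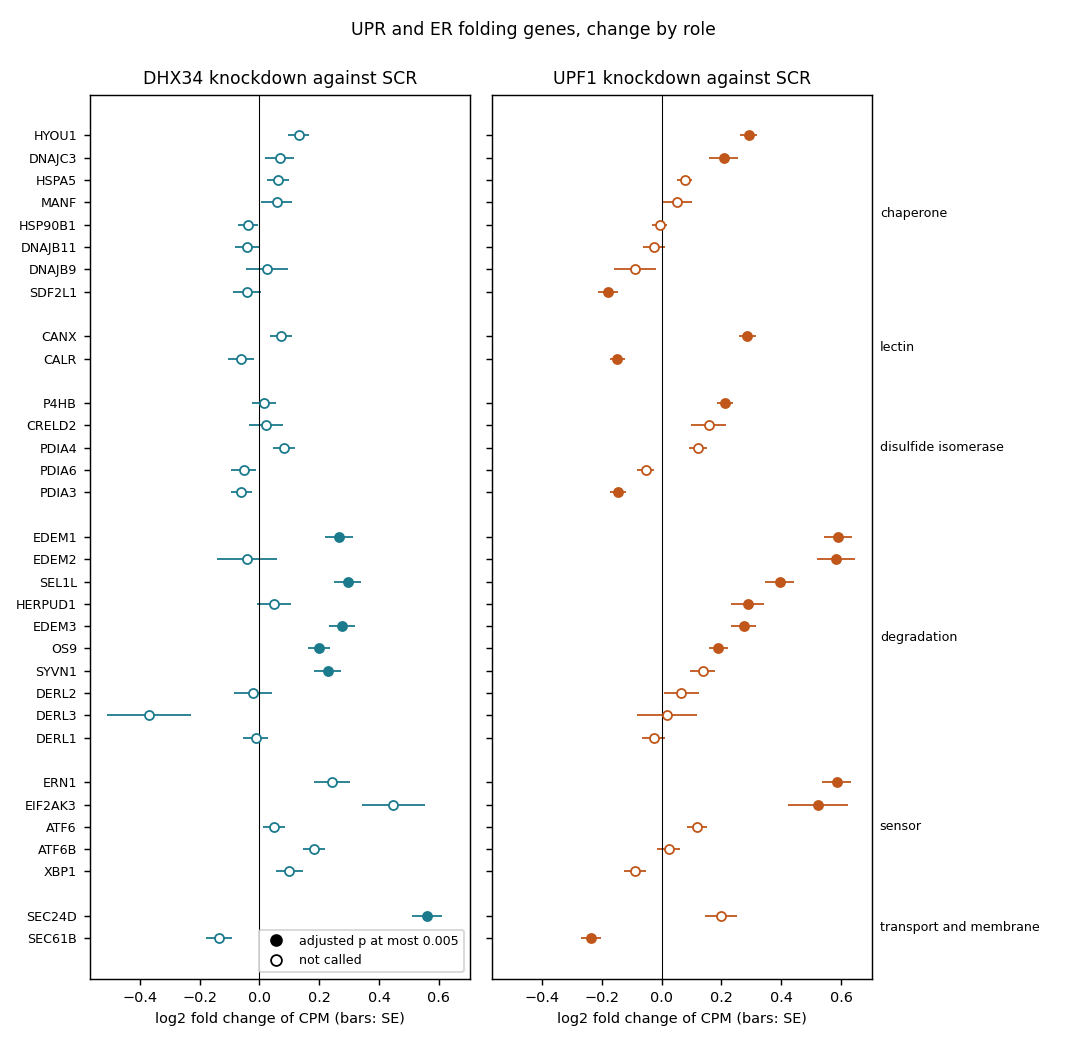
Log2 fold change of CPM (x axis) for 32 of the 33 genes (y axis, grouped by role; WFS1 is left out for its low level) in the DHX34 knockdown (left) and the UPF1 knockdown (right), both against the same SCR libraries. Bars are SE and filled points passed an edgeR adjusted p of at most 0.005: 6 rises on the left, and 12 rises and 4 falls on the right.

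UPF1 knockdown changed 16 of the 33 genes. ERAD genes, both ERN1 and EIF2AK3, and a few folding genes rose, while calreticulin, PDIA3, SDF2L1 and SEC61B fell. There were 12 rises, beside 12.4% of the 17184 genes tested, and 4 falls, beside 12.9%. The median log2 fold change was 0.12, against 0.02 over all genes. DESeq2 gave 13 higher and 4 lower, and with the length trend removed 11 were called higher and 2 lower. The split depended on the scale: limma on log2(TPM + 0.5) called 20 higher and 0 lower, but there the median of all genes was itself shifted by 0.21, and with each library centred on its median gene it called 4 higher and 3 lower.

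Among the chaperones 2 of 8 rose (25%) and 1 fell (12.5%), beside 12.4% and 12.9% of all genes tested, the fall near its share. HYOU1, which serves as nucleotide exchange factor for BiP, stood at 262, 265 and 269 CPM in SCR and 318, 334 and 326 in the UPF1 knockdown, a log2 rise of 0.29 (SE 0.03, adjusted p 6.29e-06). DNAJC3 (p58IPK), a cochaperone and an inhibitor of PERK, rose by 0.21 (SE 0.05, adjusted p 0.00492), a call that was lost in each of the 6 fits that left out 1 library (adjusted p 0.00652 to 0.0274). SDF2L1 fell from 352, 338 and 340.0 to 308, 315 and 289.7 CPM, with no overlap (log2 -0.18, SE 0.03, adjusted p 0.00107). The SDF2L1 call was lost without SCR replicate 1 or UPF1 replicate 3 (adjusted p at most 0.0054) and with the length trend removed (-0.09, adjusted p 0.0333).

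HSPA5 and DNAJB9, classical targets of the UPR, were not called in either knockdown. HSPA5 (ENSG00000044574, chromosome 9, 125234853 to 125241382) stood at 524, 518 and 538 CPM in SCR, 561.9, 549.7 and 536 after DHX34 knockdown and 553, 561.4 and 558 after UPF1 knockdown. The UPF1 libraries lay above the SCR libraries by a log2 difference of 0.08 (SE 0.03, adjusted p 0.025), which did not pass the threshold, and the DHX34 libraries overlapped with SCR. DNAJB9 (ERdj4), a cochaperone that XBP1s is known to drive, stood at 16.4, 14.9 and 14.5 CPM in SCR, at 14.9, 16.1 and 15.6 after DHX34 knockdown and at 13.2, 15.1 and 14.8 after UPF1 knockdown, and all groups overlapped (log2 -0.09, SE 0.07, adjusted p 0.345 for UPF1). HSP90B1 (Grp94), DNAJB11 (ERdj3) and the secreted ER factor MANF had log2 differences of -0.01, -0.03 and 0.05, none called.

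The lectins changed in opposite directions. Calnexin, the membrane-bound lectin that holds glycoproteins during folding, rose from 942, 960.2 and 1007 to 1152, 1205 and 1204 CPM (log2 0.29, SE 0.03, adjusted p 1.11e-05). Its soluble counterpart calreticulin fell from 947, 920.1 and 962 to 843, 863 and 856 (log2 -0.15, SE 0.03, adjusted p 0.000456). Neither pair of groups overlapped, and both calls held in all 6 fits that left out 1 library, but on log2(TPM + 0.5) with no filter the calreticulin difference was 0.01. Among the disulfide isomerases P4HB rose from 586 ± 19.2 to 681 ± 8.51 CPM (SD, n = 3), a log2 change of 0.21 (SE 0.03, adjusted p 6.63e-05). PDIA3, which works with the lectins, fell from 429, 432 and 448 to 388, 397 and 402 (log2 -0.15, SE 0.03, adjusted p 0.000859). Without UPF1 replicate 1 or 2 the PDIA3 call was lost (adjusted p at most 0.0076), and on log2(TPM + 0.5) with no filter its difference was 0.09. PDIA4 lay just outside the threshold at 0.12 (SE 0.03, adjusted p 0.00515), and PDIA6 and CRELD2 were at -0.05 and 0.16.

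ERAD genes held the largest group of rises, 6 of 10 (60%), beside 12.4% of all genes tested, with a median log2 fold change of 0.23 over the 10. EDEM1 (ENSG00000134109, chromosome 3, 5187646 to 5219958) stood at 36.3, 37.8 and 39.7 CPM against the SCR values given above, a log2 rise of 0.59 (SE 0.05, adjusted p 1.62e-06). EDEM2 (ENSG00000088298, chromosome 20, 35115364 to 35147336), the mannosidase that takes the first trimming step, stood at 14.6, 12.9 and 14.6 CPM in SCR, 14.5, 14.7 and 11.5 after DHX34 knockdown and 21.2, 22.2 and 19.9 after UPF1 knockdown (log2 0.58, SE 0.06, adjusted p 1.69e-05). All UPF1 libraries lay above all SCR and DHX34 libraries for EDEM1 and EDEM2. EDEM2 had an effective length of 1708 bases, below the median of all genes, and its rise was 0.57 (adjusted p 2.08e-05) with the length trend removed. SEL1L reached 41.7, 45.6 and 46.1 CPM (log2 0.39, SE 0.05, adjusted p 5.22e-05), and EDEM3 and OS9 rose by 0.28 and 0.19. HERPUD1, a short-lived membrane protein of the ligase complex, went from 25.2, 27.3 and 25.5 to 29.9, 33.8 and 31.8 CPM (log2 0.29, SE 0.06, adjusted p 0.00111). The HERPUD1 call was lost without SCR replicate 1, UPF1 replicate 2 or UPF1 replicate 3 (adjusted p at most 0.00802). On length-scaled counts EDEM1 and EDEM2 were still called (adjusted p 0.000103 and 0.000446). The calls of SEL1L, EDEM3, OS9 and HERPUD1 were lost there (adjusted p 0.0117 to 0.019). SYVN1 and the derlins DERL1, DERL2 and DERL3, channel components of retrotranslocation, were not called, at 0.14, -0.03, 0.07 and 0.02.

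Of the 5 sensors and transcription factors 2 rose (40%), beside 12.4% of all genes tested, and both were kinases of the ER membrane. ERN1 (ENSG00000178607, chromosome 17, 64039080 to 64130819) stood at 14.4, 14.6 and 15.2 CPM in SCR, 16.5, 18 and 18 after DHX34 knockdown and 22.7, 22.4 and 21.7 after UPF1 knockdown. The groups did not overlap, and the UPF1 rise was 0.58 (SE 0.05, adjusted p 2.73e-06). All 6 fits that left out 1 library called it. On length-scaled counts the ERN1 rise was 0.35 (adjusted p 0.0122), so the call was lost there. EIF2AK3 reached 10.7, 12.5 and 12.4 CPM (log2 0.52, SE 0.10, adjusted p 0.00121), a call lost without UPF1 replicate 2 or 3 (adjusted p at most 0.00828). ATF6 stood at 67.2, 69.5 and 69.4 CPM in SCR and 73.2, 75.2 and 75.9 in the UPF1 knockdown, separate groups with a log2 difference of 0.12 (SE 0.03, adjusted p 0.0145) that was not called. With the length trend removed the ATF6 difference was -0.02. XBP1 (ENSG00000100219, chromosome 22, 28794555 to 28800597) stood at 100.5, 95.4 and 98.5 CPM in SCR, at 108, 108 and 99.2 after DHX34 knockdown and at 88.6, 93.7 and 95.3 after UPF1 knockdown (log2 -0.09, SE 0.04, adjusted p 0.0692 for UPF1, not called). SEC61B, a small subunit of the translocon through which proteins enter the ER, fell from 103, 96.9 and 100.2 to 83.2, 86.9 and 85.7 CPM (log2 -0.24, SE 0.03, adjusted p 0.000148). At 288 bases it was the shortest member, and with the length trend removed its fall was -0.11 (adjusted p 0.0184), no longer called. WFS1 stayed between 0.0703 and 0.539 CPM in all libraries, where no difference was detectable.

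**Figure D2:**
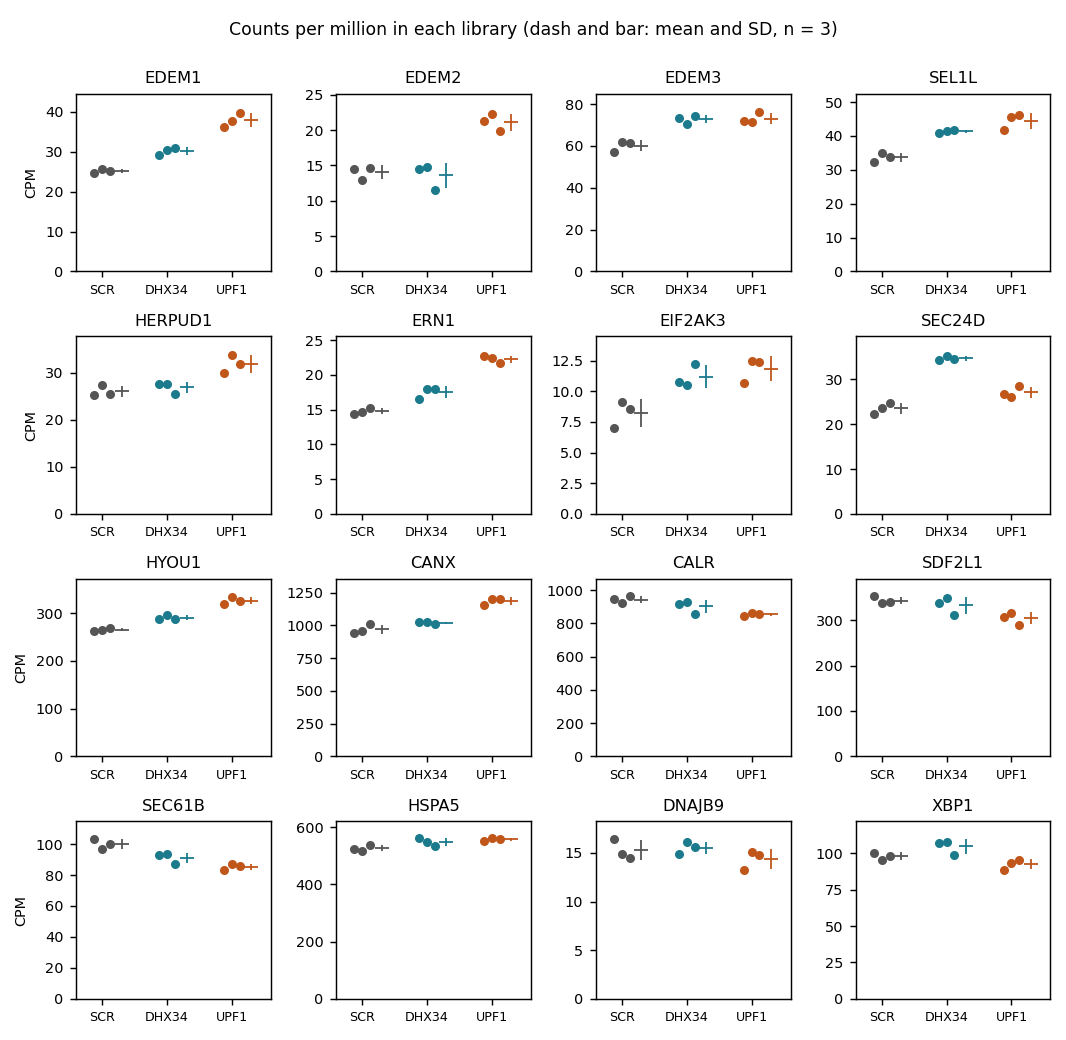
CPM (y axis, from 0) of 16 genes in each SCR, DHX34 and UPF1 library (x axis), with the mean and SD beside the 3 points. EDEM1, EDEM2 and ERN1 were highest in the UPF1 libraries (36.3 to 39.7, 19.9 to 22.2 and 21.7 to 22.7 CPM), SEC24D was highest in the DHX34 libraries (34.3 to 35.3 CPM), and HSPA5 and DNAJB9 stayed near their SCR levels.

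**Figure D3:**
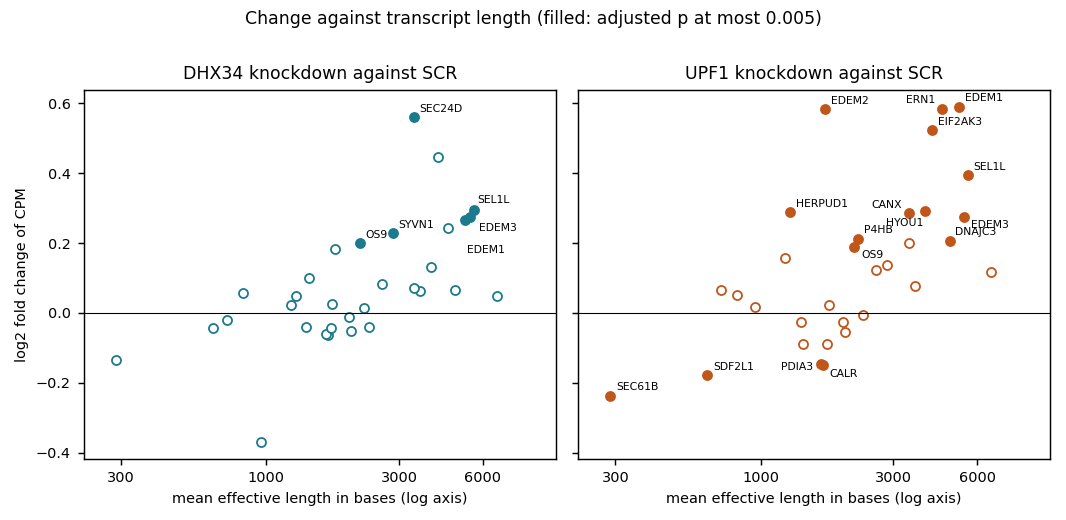
Log2 fold change of CPM (y axis) against mean effective transcript length in bases (x axis, log scale) for the same 32 genes in the DHX34 (left) and UPF1 (right) knockdown. Filled points passed the threshold: on the left all 6 lie at 2170 bases or more, on the right the 4 falls lie at 1668 bases or less and the 12 rises at 1277 bases or more.

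The UPF1 and DHX34 libraries were also compared directly, since both contrasts above share the SCR libraries. In the UPF1 knockdown 7 members were higher than in the DHX34 knockdown, beside 9.89% of 17435 genes, and 1 was lower, beside 7.47%. The higher genes were EDEM2 (log2 0.64, SE 0.09, adjusted p 0.000285), ERN1 (log2 0.36, SE 0.06, adjusted p 0.000548), EDEM1 (log2 0.34, SE 0.05, adjusted p 0.000257), HERPUD1 (log2 0.26, SE 0.06, adjusted p 0.00452), CANX (log2 0.23, SE 0.03, adjusted p 0.000273), P4HB (log2 0.21, SE 0.03, adjusted p 0.0005) and HYOU1 (log2 0.18, SE 0.03, adjusted p 0.0015). SEC24D was lower (log2 -0.34, SE 0.05, adjusted p 0.000239). HERPUD1 lost its call in every fit that left out 1 library (adjusted p 0.00514 to 0.0261). HYOU1 lost it without DHX34 replicate 1, UPF1 replicate 2 or UPF1 replicate 3 (at most 0.0135), and P4HB without UPF1 replicate 2 (0.00504). Without UPF1 replicate 2 the higher count was 4, and without DHX34 replicate 3 the lower count was 4. Over all genes these fits called 1124 higher and 1917 lower, against 1724 and 1302 with all libraries. For SEL1L, EDEM3 and OS9, which rose in both knockdowns, the direct differences were 0.12, 0.02 and 0.01, none called. In this comparison the log2 fold change hardly followed transcript length (Spearman -0.0315 over 17435 genes), and 6 genes were called higher and 3 lower with the trend removed.

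XBP1 splicing is the direct readout of IRE1 activity. In the unspliced transcript XBP1-201 the intron lies inside exon 4 and inside the coding sequence, at chr22:28796128-28796153 (GRCh38, minus strand). The reference sequence across it is shown because the spliced and unspliced mRNA are told apart here by these bases. The 26 bases that the annotation places in the intron are in capitals, with 30 coding bases on each side (chr22:28796098-28796183).
XBP1 intron: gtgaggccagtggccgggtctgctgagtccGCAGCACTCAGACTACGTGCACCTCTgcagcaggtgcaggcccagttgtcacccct

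Of the XBP1 transcripts in the index, XBP1-202 lacks the 26 bases. XBP1-202 was listed at 0 TPM in all 3 SCR libraries. In the DHX34 knockdown it stood at 5.62, 4.01 and 4.8 TPM (472, 248 and 322 expected counts), and in the UPF1 knockdown at 1.85, 4.1 and 5.65 TPM (113, 313 and 473 expected counts). Every knockdown library was above every SCR library, and the knockdown groups overlapped. XBP1-201 stood at 58.6, 57.8 and 57.7 TPM in SCR, 65.7, 66.6 and 64.2 after DHX34 knockdown and 59.4, 60.1 and 60.4 after UPF1 knockdown. On log2(TPM + 0.5) the median of all genes was itself shifted by 0.16 with DHX34 and 0.21 with UPF1 knockdown. In the edgeR fit on counts XBP1-201 differed by 0.02 with DHX34 knockdown (adjusted p 0.932). With UPF1 knockdown it differed by -0.20 (edgeR adjusted p 0.0112, not called, and DESeq2 adjusted p 1.64e-09). The spliced share of XBP1 TPM over the place was 7.68, 5.53 and 6.73% in the DHX34 libraries and 2.92, 6.15 and 8.22% in the UPF1 libraries. The exact two-sided permutation p was 0.1 for each knockdown against SCR, the smallest that 3 libraries against 3 can give, and 0.7 between the knockdowns. On expected counts in place of TPM the share was 3.9% in the DHX34 and 3.39% in the UPF1 knockdown (means, n = 3).

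The listing at 0 rests on how reads were assigned to near-identical transcripts. The SCR libraries held 6613 to 8411 expected counts on XBP1 transcripts over the place, so 3 counts would be 0.0357% to 0.0454%, a limit for counting error only and not for the assignment. The model of XBP1-202 in the index was 1131 bases long, against 1850 for XBP1-201, and it is 1791 bases in the later annotation, so the spliced form was represented by a shorter model. In the edgeR fit of single transcripts XBP1-202 did not pass the threshold against SCR (adjusted p 0.0081 for DHX34 and 0.00687 for UPF1), while DESeq2 gave 6.22e-16 and 5e-14. Of 25188 transcripts with at least 100 expected counts in each of the 6 knockdown libraries, 17 (0.0675%) were listed at 0 in all SCR libraries, and XBP1-202 was the 1 among them that belongs to the set. Whether the 0 is an absence of the spliced RNA or of its assignment was not tested. DNAJB9, which XBP1s is known to drive, did not rise in either knockdown (log2 differences 0.03 and -0.09). EDEM1, another such gene, rose in both, but its DHX34 call was lost with the length trend removed (0.13, edgeR adjusted p 0.0516). A link of these genes to XBP1 splicing was not tested.

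**Figure D4:**
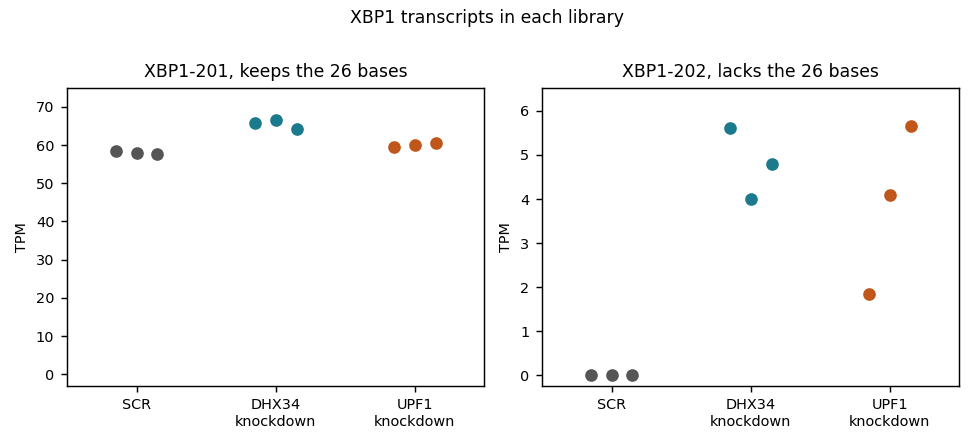
TPM (y axis) of the unspliced XBP1-201 (left) and the spliced XBP1-202 (right) in each library (points) of the 3 groups (x axis). XBP1-201 lies between 57.7 and 66.6 TPM throughout, while XBP1-202 is listed at 0 in the 3 SCR libraries and lies between 1.85 and 5.65 TPM in the 6 knockdown libraries. On counts the log2 fold change of XBP1-201 was 0.02 with DHX34 and -0.20 with UPF1 knockdown, neither called by edgeR.

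Since both depleted proteins act in NMD, transcripts of the set that are annotated as NMD substrates were followed. There were 13 genes with such a transcript and a mean of at least 1 TPM, and each gene's share of TPM on them was taken. The median share over the 13 genes was 0.434, 0.399 and 1.16% in the SCR libraries, 0.605, 0.885 and 1.55% in the DHX34 libraries and 2.56, 2.86 and 1.83% in the UPF1 libraries. The UPF1 libraries lay above all SCR and DHX34 libraries, with a difference from SCR of 1.76 percentage points (exact two-sided permutation p 0.1, the smallest possible). On expected counts in place of TPM this difference was 0.69, and with retained-intron transcripts added it was 1.04. The DHX34 libraries overlapped with SCR (difference 0.35 percentage points, exact permutation p 0.5). Over all 4810 genes with such a transcript the median was 2.91% ± 0.103 for SCR, 3.15% ± 0.156 after DHX34 knockdown and 4.77% ± 0.086 after UPF1 knockdown (SD, n = 3).

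With UPF1 knockdown the share was above SCR without overlap in 6 of the 13 genes, beside 28.8% of the 4810 genes, and below in 2, beside 2.74%. In the DHX34 knockdown these numbers were 2, beside 6.99%, and 1, beside 6.15%. Against the DHX34 knockdown the UPF1 libraries were higher in 7, beside 26.9%, and lower in 1, beside 2.37%. SEC24D went from 0, 0.388 and 0% in SCR to 0.605, 1.24 and 1.35% after DHX34 and 2.56, 2.78 and 2.89% after UPF1 knockdown. OS9 had the same order, with 0.488, 0.399 and 1.16%, 1.59, 1.71 and 1.68% and 2.56, 2.86 and 2.14%. In both genes the 3 groups were separate, with the DHX34 libraries between the others. SEC24D as a whole stood at means of 6.71 TPM in SCR and 8.97 after UPF1 knockdown, so its shares stand for very low levels. For MANF, CALR, CANX and P4HB the UPF1 libraries were separate from both other groups, with MANF at 2.92, 3.4 and 2.31% against at most 0.885% elsewhere. EDEM3 ran the other way, from 19.9, 13 and 11.4% in SCR to 4.54, 5.95 and 4.66% and 4.37, 3.15 and 1.08%. PDIA3, whose NMD-annotated transcripts took the larger part of its TPM in SCR, went from 58.5, 53.2 and 53.9% to 48.9, 49.3 and 50.8% in the UPF1 knockdown. The NMD-annotated transcript of HERPUD1 was listed at 0 in all 9 libraries.

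**Figure D5:**
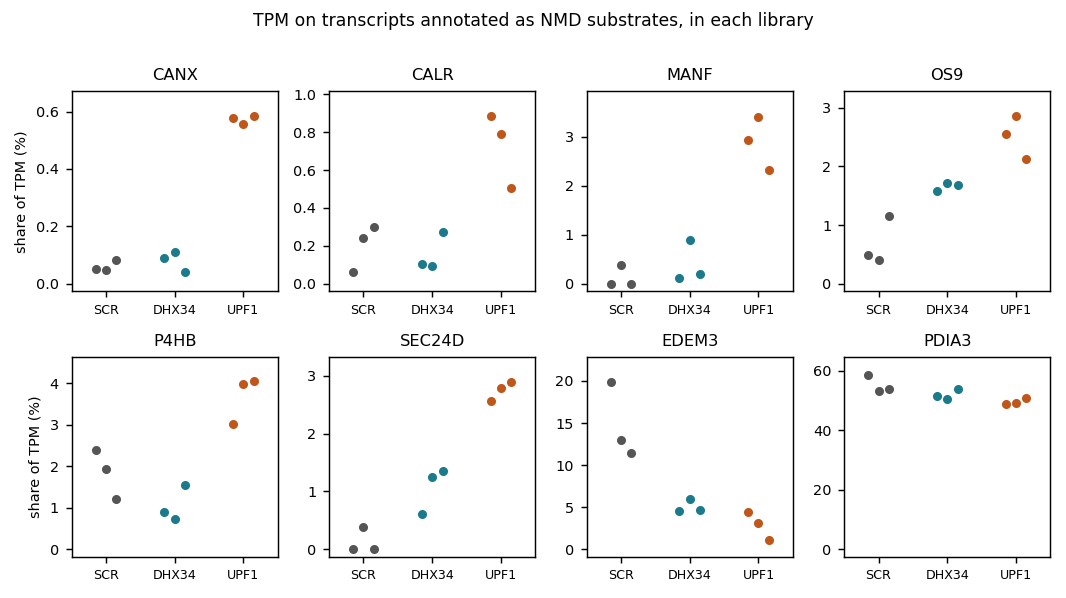
Share of a gene's TPM (y axis, percent) on transcripts annotated as NMD substrates, in each library (points) of SCR, DHX34 and UPF1 (x axis), for 8 genes of the set. CANX, CALR, MANF, OS9, P4HB and SEC24D are highest in the UPF1 libraries, while EDEM3 is highest in SCR (11.4% to 19.9%).

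Single transcripts were fitted in the same way, over all transcripts. With UPF1 knockdown 4 of 159 tested transcripts of the set rose, beside 0.97% of 62497, and 2 fell, beside 1.62%. In the DHX34 knockdown 0 of 149 were called by edgeR, beside 0.0348% higher and 0.0116% lower of 60416 (17 higher and 4 lower at an unadjusted p under 0.05, 10 and 2 by DESeq2). Between the knockdowns 0 of 161 were called, beside 0.732% higher and 0.32% lower of 64325 (20 and 9 at an unadjusted p under 0.05, 9 and 3 by DESeq2). CANX-211, an NMD-annotated calnexin transcript, stood at 0.132, 0.133 and 0.222 TPM in SCR, 0.297, 0.362 and 0.143 after DHX34 knockdown and 2.21, 2.27 and 2.33 after UPF1 knockdown. The UPF1 libraries were far above the rest, a log2 rise of 3.55 (SE 0.29, adjusted p 0.00175), while the DHX34 libraries overlapped with SCR. Its level stayed below 1% of calnexin TPM. The other rises were ERN1-201 (log2 0.68, SE 0.07, adjusted p 0.00249), EDEM1-201 (log2 0.55, SE 0.05, adjusted p 0.00183) and HYOU1-218 (log2 0.24, SE 0.03, adjusted p 0.00471), all coding. CALR-201, a coding transcript (log2 -0.20, SE 0.02, adjusted p 0.00477), and PDIA3-202 (log2 -0.24, SE 0.03, adjusted p 0.00358) fell. PDIA3-202 is NMD-annotated like CANX-211, and its mean TPM was 138.9 in SCR and 139.1 after UPF1 knockdown. All 6 calls were lost in every fit that left out 1 library, where 0 were called in each direction, while DESeq2 called 21 higher and 10 lower. A shorter coding form, CANX-207, chosen after its values were seen, went from 7.92, 16.4 and 15.3 TPM in SCR to 47.8, 44.2 and 53.1 in the DHX34 and 47.3, 65.1 and 49.1 in the UPF1 knockdown without passing the edgeR threshold (adjusted p 0.0295 and 0.0123). For CANX-207 DESeq2 gave adjusted p of 5.77e-11 with DHX34 and 6.85e-07 with UPF1 knockdown.

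CANX-211 lacks exon 4 of the main coding transcript CANX-201, which is coding and 59 bases long, not a multiple of 3, at chr5:179707132-179707190 (GRCh38, plus strand). The exon is shown because the transcript that rose lacks it.
CANX exon 4: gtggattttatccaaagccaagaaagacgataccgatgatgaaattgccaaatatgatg

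The promoters of the set were searched for the response elements of the UPR. Of the 33 genes 29 had a promoter in the RefSeq table (GRCh38.p14, 250 bases before to 50 after the start site), with 35 promoters in all. The ER stress response element (ERSE, CCAAT, 9 bases, CCACG, either strand) is bound by NF-Y and ATF6. It was in 7 of the 29 genes (24.1%), beside 0.0916% of all 27305 genes with a promoter there. The holders were HSPA5, HSP90B1, CALR, CANX, PDIA6, CRELD2 and XBP1. ERSE-II (ATTGG, 1 base, CCACG) was in HYOU1, HERPUD1 and SDF2L1 (10.3%), beside 0.0696% of all these genes. The UPRE core (TGACGTGG), a site for XBP1s, was in HYOU1 (3.45%), where it overlaps an ERSE-II copy, beside 0.927% of all these genes. The copies are shown to let the element be compared with its holders' values, with the fixed bases in capitals and the spacer in lower case, each on the strand that matches the motif as written.
HSPA5 chr9:125241391-125241409: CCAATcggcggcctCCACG
XBP1 chr22:28800603-28800621: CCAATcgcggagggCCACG
CANX chr5:179698778-179698796: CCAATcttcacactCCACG
PDIA6 chr2:10812853-10812871: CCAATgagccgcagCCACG
HERPUD1 chr16:56932025-56932035: ATTGGgCCACG
SDF2L1 chr22:21642114-21642124: ATTGGtCCACG

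The HSPA5 copy lies 66 to 48 bases before the start site on the gene's own strand, and the stretch around it (chr9:125241376-125241424, minus strand) is printed with the whole element in capitals.
HSPA5 promoter: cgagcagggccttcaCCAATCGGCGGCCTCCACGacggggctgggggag
The 10 holders of ERSE or ERSE-II and the 19 genes without either were set side by side as a description. In the DHX34 knockdown 0 holders were called by edgeR (1 at an unadjusted p under 0.05, 0 by DESeq2) with a median log2 fold change of 0.04. The others gave 5 rises (26.3%) with a median of 0.07, where 5.54% of all genes rose and 4.86% fell. In the UPF1 knockdown 3 holders rose (30%) and 2 fell (20%), with a median of 0.04. The genes without either gave 9 rises (47.4%) and 1 fall (5.26%), with a median of 0.19. Of all genes tested there, 12.4% rose and 12.9% fell. The holders that rose were HYOU1, HERPUD1 and CANX, and those that fell were SDF2L1 and CALR, so each element had holders that rose and holders that fell. The difference between holders and the rest was not tested.

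A wider list of 157 ER pathway genes, in 6 groups and apart from the 33, was read from the same fits. In the DHX34 knockdown 14 were higher (8.92%, beside 5.54% of all genes) and 16 lower (10.2%, beside 4.86%), with a median log2 fold change of -0.02 against 0.02 over all genes. In the UPF1 knockdown 33 were higher (21%, beside 12.4% of all genes) and 25 lower (15.9%, beside 12.9%), with a median of 0.01. Without 1 library the DHX34 counts ran from 5 higher and 5 lower (without SCR replicate 1) to 15 and 15 (without DHX34 replicate 3). Without SCR replicate 2 or 3 they were 8 and 13 or 7 and 6, and without DHX34 replicate 1 or 2 they were 6 and 8 or 8 and 10. Over all genes the calls ran from 480 higher and 301 lower (without SCR replicate 3) to 971 and 814 (without DHX34 replicate 3). Between the knockdowns 33 were higher (21%, beside 9.89%) and 12 lower (7.64%, beside 7.47%) in UPF1 libraries, with 5 lower without UPF1 replicate 2, 6 without UPF1 replicate 1, 8 without DHX34 replicate 1 or 2 and 18 without DHX34 replicate 3. Of 14 genes downstream of PERK and the integrated stress response 0 rose and 6 fell in the DHX34 knockdown (1 higher and 10 lower at an unadjusted p under 0.05, 0 and 7 by DESeq2), with a median of -0.20. In the UPF1 knockdown 5 rose and 2 fell, with a median of 0.15. Between UPF1 and DHX34 libraries 9 were higher and 0 lower (9 and 2 at an unadjusted p under 0.05, 9 and 1 by DESeq2), with a median of 0.54.

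ATF4, the transcription factor whose translation PERK signalling raises, stood at 384, 363 and 370.1 CPM in SCR, 314, 319.5 and 304 after DHX34 knockdown and 567, 575 and 571 after UPF1 knockdown. The groups were fully separate, with a log2 change of -0.25 (SE 0.04, adjusted p 0.00108) in the DHX34 knockdown, noted after its values were seen, and of 0.61 (SE 0.03, adjusted p 2.2e-08) in the UPF1 knockdown. CHAC1, a glutathione-degrading enzyme, stood at 9.51, 8.9 and 9.24 CPM in SCR, at 4.15, 6.03 and 6.41 after DHX34 knockdown and at 10.7, 12.9 and 10.8 after UPF1 knockdown, a log2 change of -0.74 (SE 0.14, adjusted p 0.00295) with DHX34 knockdown. The CHAC1 call was lost without any 1 of the SCR libraries or DHX34 replicate 2 (adjusted p at most 0.0196). Asparagine synthetase (ASNS) stood at 387, 369.8 and 387 CPM in SCR, at 285, 279 and 253 after DHX34 knockdown and at 398, 408 and 410.0 after UPF1 knockdown, a log2 change of -0.48 (SE 0.05, adjusted p 7.29e-05) with DHX34 knockdown. Both were lowest in the DHX34 libraries without overlap. ATF3, a stress-induced transcription factor, stood at 17.7, 15.7 and 16.4 CPM in SCR, at 14, 13.9 and 13.5 after DHX34 knockdown and at 34.2, 34.6 and 33.6 after UPF1 knockdown, a rise of 1.04 (SE 0.05, adjusted p 4.53e-08) in the UPF1 knockdown. SESN2, a stress-induced regulator of mTORC1, rose by 0.64 (SE 0.03, adjusted p 6.86e-08) there. For ATF3, CHAC1 and ATF4 the UPF1 libraries exceeded the DHX34 libraries by 1.32, 1.07 and 0.88 on the log2 scale. The RNA of EIF2AK3 itself rose with UPF1 knockdown and did not fall with DHX34 knockdown, as given above. PERK activity was not measured, and its part in these changes was not tested.

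In the other groups changes ran both ways, and their counts are to be read against the shares over all genes given for the 157. Of 40 folding and glycan-trimming genes 3 rose (7.5%) and 3 fell (7.5%) in the DHX34 knockdown, near the shares over all genes given above, and 13 rose (32.5%) and 6 fell (15%) in the UPF1 knockdown, the falls near their share over all genes. FKBP14, a prolyl isomerase of collagen folding, rose from 15.8, 14.1 and 15.6 to 30.9, 30.6 and 32.2 CPM with UPF1 knockdown (log2 1.04, SE 0.05, adjusted p 6.51e-08). FKBP2, of the same family, fell with a log2 change of -0.41 (SE 0.05, adjusted p 4.53e-05). The calcium-binding RCN1 rose and RCN2 fell in the DHX34 knockdown, at 0.51 (SE 0.09, adjusted p 0.00198) and -0.46 (SE 0.04, adjusted p 4.15e-05). The RCN1 call was lost without any 1 of the SCR libraries or DHX34 replicate 1 (adjusted p at most 0.0125), and that of ERLIN2, described next, without SCR replicate 1, SCR replicate 3 or DHX34 replicate 1 (at most 0.0124). QSOX1, a sulfhydryl oxidase, was lower in UPF1 than in DHX34 libraries (log2 -0.43, SE 0.04, adjusted p 3.44e-05). Of 32 further ERAD genes 5 rose and 0 fell in the DHX34 knockdown (8 and 9 at an unadjusted p under 0.05, 5 and 5 by DESeq2), with ERLIN2 at 0.80 (SE 0.13, adjusted p 0.00159), while UPF1 knockdown gave 5 rises and 7 falls. Of 29 translocation genes 0 rose and 5 fell with DHX34 knockdown (1 and 13 at an unadjusted p under 0.05, 0 and 8 by DESeq2) and 2 rose and 6 fell with UPF1 knockdown, and SRP14, a subunit of the signal recognition particle, fell with a log2 change of -0.35 (SE 0.04, adjusted p 1.33e-05).

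Of 21 COPII genes 2 rose and 0 fell in the DHX34 knockdown (7 and 2 at an unadjusted p under 0.05, 2 and 1 by DESeq2), and 4 rose and 2 fell in the UPF1 knockdown. The group of sensor processing and tRNA ligation held 21 genes, of which 4 rose and 2 fell in each knockdown. CREB3L2, an ER-bound transcription factor related to ATF6, rose from 57.9, 58.9 and 58.4 to 81.8, 81 and 83.3 CPM with DHX34 knockdown (log2 0.49, SE 0.04, adjusted p 9.26e-06). RTRAF, a subunit of the ligase complex that rejoins the cut XBP1 mRNA, fell with UPF1 knockdown with a log2 change of -0.34 (SE 0.04, adjusted p 2.7e-05). The UPF1 libraries were also below the DHX34 libraries in MAP3K5 (-0.46), a kinase downstream of IRE1, and CREB3L1 (-0.38), a further ER-bound transcription factor.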

How the data were processed

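RNA of K562 cells was sequenced as poly(A)-selected libraries in 3 groups of 3. The authors quantified reads with Salmon against GRCh38 transcripts (Ensembl 93, per the methods). They deposited, per library, expected counts, which are the reads the authors' Salmon run assigned to each of 203027 transcripts, and the deposited TPM, which the authors' run scaled by effective length. Tables of the authors' own comparisons (fold changes, p-values and q-values from sleuth, splicing changes from SUPPA2) were not used. Transcripts were joined by identifier to GENCODE 44 (97.9% matched, 98.08% to 98.12% of counts), and counts were summed by gene and rounded. edgeR 4.0.16 (quasi-likelihood test, TMM, filterByExpr with a minimum count of 10) compared the 6 libraries of each pair of groups with Benjamini-Hochberg adjustment over all genes, and a gene was called at an adjusted p of at most 0.005. The SE is the absolute log2 fold change over the root of F. The transcript fit was the same. Shares were tested by exact two-sided permutation (SciPy 1.17.1).

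The 33 genes, the lists and the tests were chosen with earlier results of these data known. Per-library values were given for called genes (where over 12, the 6 largest rises and falls) and 8 set genes. For other ER genes the 3 largest called rises and falls per comparison were named, at a mean of at least 5 CPM. Alternatives were DESeq2 1.42.0, limma 3.58.1 on log2(TPM + 0.5) with at least 1 TPM, other filters, length-scaled counts, removal of length and GC trends, a looser threshold of 0.05, a replicate block and leaving out each library. The fits were tested on simulated data. The methods call the libraries biological replicates, and intervals and floors cover counting error only. Depth was 73478797 to 103625443 expected counts. A marker gene of the cell type check is not reported here.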

Additional observations from a re-analysis of the deposited data

Results flagged for a closer look

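For 8 genes the 2 knockdowns differed in the direct edgeR test of UPF1 against DHX34 libraries, which uses no SCR library. In that test 7 members were higher (21.2%), beside 9.89% of all genes tested, and 1 was lower (3.03%), beside 7.47%. The log2 fold changes of UPF1 over DHX34 libraries were 0.64 for EDEM2, 0.36 for ERN1, 0.34 for EDEM1, 0.26 for HERPUD1, 0.23 for CANX, 0.215 for P4HB and 0.18 for HYOU1. Each of these was higher in the UPF1 libraries, and SEC24D was lower at -0.34. HERPUD1 did not keep its call in any fit that left out 1 library. No reason for the differences was tested.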

How the results depend on the processing

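Calls among the 33 genes depended on scale and length, and the cause was not tested. In the DHX34 comparison 0 were higher by limma on log2(TPM + 0.5) with no filter and with libraries centred (centring was added after the data had been seen), 1 on length-scaled counts or with the length trend removed, 2 with length and GC trends removed, and 10 higher and 1 lower at an adjusted p of at most 0.05. In the UPF1 comparison limma with either pseudocount gave 20 higher and 0 lower, limma with no filter 0 lower, centring 4 higher and length-scaled counts 5 higher, while 2 were lower with the length or length and GC trends removed or with all 9 libraries in 1 fit. Between the knockdowns limma gave 3 higher and 0 lower with either pseudocount, 1 and 0 with no filter and 0 higher when centred. Length-scaled counts gave 3 higher, and 3 were lower with no count filter, either trend removal, an adjusted p of at most 0.05 or DESeq2, and 2 with all 9 libraries. Calls over all genes differed by setting too. With DHX34 knockdown limma with no filter called 149 higher and 14 lower of 29003, and 155 and 395 of 12500 when centred. The UPF1 comparison gave 3413 higher and 313 lower of 12538 by limma on log2(TPM + 0.5), and 793 and 2088 when centred. Between the knockdowns these fits gave 1063 and 446, and 691 and 705, of 12715.

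The counts of the 157 other ER genes are to be read beside these calls over all genes. For the 157 other ER genes in the DHX34 comparison, limma gave 2 lower with either pseudocount, 2 higher and 0 lower with no filter, and 3 and 8 when centred. Length-scaled counts gave 5 and 9, removal of the length trend 7 higher and of both trends 8 higher, the looser threshold 28 and 36, no count filter 32 lower and DESeq2 31 lower. In the UPF1 comparison limma gave 71 higher and 2 lower with either pseudocount, 50 and 0 with no filter, and 17 higher when centred, the looser threshold 50 and 41, length-scaled counts 14 lower and DESeq2 39 lower. Between the knockdowns limma gave 1 lower with either pseudocount, 17 higher and 0 lower with no filter, and 18 and 4 when centred, length-scaled counts 5 lower, both trends removed 22 lower and the looser threshold 25 lower. For transcripts DESeq2 gave 10 higher and 2 lower, 21 and 10, and 9 and 3 in the 3 comparisons, and limma 1 higher, 12 higher and 0 lower, and 4 higher. Over all transcripts DESeq2 called 1208 higher and 1555 lower of 60416, 3721 and 4948 of 62497, and 2534 and 2117 of 64325.

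The spliced XBP1 share in the DHX34 knockdown was 3.9 percentage points on expected counts. The NMD share difference was -0.22 (DHX34) and 1.04 (UPF1) with retained-intron transcripts added, and 0.69 (UPF1) and 0.49 (between knockdowns) on expected counts.

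Leaving out 1 library gave 1 to 6 members higher with DHX34 knockdown, 4 to 6 higher and 1 to 4 lower between the knockdowns, 5 to 15 other genes higher and 5 to 15 lower with DHX34 knockdown, 5 to 18 lower between the knockdowns, and 0 transcripts in either direction with UPF1 knockdown. Over all genes 480 to 971 were called higher with DHX34 knockdown in these fits, against 942 with all libraries. Between the knockdowns 1124 to 1948 of all genes were higher and 791 to 1917 lower.

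Replicate numbers did not pair the libraries: correlations of same-numbered deviations were 0.016, -0.30 and -0.39 for SCR and DHX34, 0.20, 0.0066 and 0.29 for SCR and UPF1, and -0.14, 0.11 and -0.14 for DHX34 and UPF1. With a replicate block 3 members and 7 other genes were higher and 8 other genes lower with DHX34 knockdown, 7 other genes were lower between the knockdowns, and 0 transcripts were called in either direction with UPF1 knockdown. The block moved no other count of members by over 1.5 times.

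Genes that were not called changed sign. HSPA5 was at -0.025 (DHX34, length trend removed), -0.001 (UPF1, both trends) and -0.01 (between knockdowns, both trends). ATF6 was at -0.111 and -0.066 (DHX34) and -0.021 and -0.014 (UPF1) with the length trend and both trends removed. SDF2L1 with DHX34 knockdown was at 0.038 by limma with no filter, 0.063 with the length trend removed and up to 0.009 without 1 library (lowest -0.081). HERPUD1 with DHX34 knockdown was at -0.006 by limma, centred or not, and -0.007 on length-scaled counts. DNAJB9 was at 0.045 with UPF1 knockdown by limma and on length-scaled counts, 0.185 by limma with no filter, 0.008 between the knockdowns by limma with no filter, and -0.011 to 0.079 without 1 library with DHX34 knockdown. By limma with no filter the UPF1 values of CALR, PDIA3 and XBP1, of which CALR and PDIA3 were called lower, were 0.006, 0.09 and 0.08.

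Low counts limit what can be said of WFS1, which lay under 1 CPM in all 9 libraries.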
